A study of Mus musculus with 11 samples.

Results

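The dense open-chromatin clusters of control lung epithelium are stretches of the genome in which many accessible regions lie close together, away from the ends of genes. They were chosen by the peaks of the control libraries alone. In each of the 6 control lists the 72935 strongest peaks by −log10 p on chromosomes 1 to 19 were kept and overlapping peaks were merged into regions. A region was kept if it was in at least 4 control lists and more than 1 kb from either end of any protein-coding gene. Kept regions at most 12.5 kb apart were stitched, and stitched groups of 5 or more regions are called domains. There were 582 domains among 24581 stitched groups. Their 3565 regions, called constituents, were 9.48% of the 37596 regions that passed the filters. Of the rest, 16975 regions were isolated and 17056 lay in groups of 2 to 4. Since control peaks chose the domains, control levels are given as a description.

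The series used ATAC-seq, which marks accessible chromatin through the cuts of a transposase, in EpCAM-selected lung epithelial cells of mouse fetuses at E17.5. It held 6 libraries of genotype Control and 5 of genotype Prdm3/16KO, called the knockout here, with 50000 captured cells per transposition. The knockout carried floxed Prdm16 and floxed Prdm3 (symbol Mecom) alleles and the ShhCre allele, which recombines in lung epithelium and came through the male germline. Sires were Prdm3fl/fl Prdm16fl/wt ShhCre+ and dams were floxed for both genes. What alleles the controls carried, the strain background, and whether each library was from its own animal is not stated in the labels used here, so p-values measure the spread between libraries. Both targeted genes belong to the PRDM family of zinc finger proteins, which act on chromatin and transcription.

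Clusters of accessible regions far from promoters often hold several enhancers, short DNA elements that bind transcription factors and raise the transcription of a gene at a distance. Long clusters tend to lie at genes that a cell type expresses strongly or that set its identity, and single elements of a cluster can open or close independently. In fetal lung epithelium such genes include those of the alveolar type 1 and type 2 programmes and the factors NKX2-1 and FOXA2.

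A few constituents held a RefSeq transcript start that is not an end of a protein-coding gene, either an internal start of a coding gene or the start of a lncRNA. These starts give sequence inside the domains. RefSeq windows of 300 bases (250 before and 50 after a start, build GRCm38.p6, which is mm10) were matched to constituents by position. In all, 171 windows lay wholly inside 137 constituents of 123 domains, 109 of coding genes and 62 of lncRNAs. Below are 6 windows with the CG dinucleotides in capitals, chosen after their values were seen. The first pair belongs to constituents whose peak was in all 6 controls and in at most 1 knockout. The next pair is from constituents in all 11 libraries, of which that of Prdm1 also ranked higher in every knockout than in any control. The last pair is from constituents that lacked a peak in some controls and ranked higher in every knockout than in any control. Prxl2a encodes a peroxiredoxin-like protein, Prdm1 the transcriptional repressor BLIMP1 and Zfhx3 a zinc finger homeobox factor, while Gm31987, D130051D11Rik and Gm33538 are annotated as lncRNAs.
Prxl2a, chr14:41008196-41008495, minus strand: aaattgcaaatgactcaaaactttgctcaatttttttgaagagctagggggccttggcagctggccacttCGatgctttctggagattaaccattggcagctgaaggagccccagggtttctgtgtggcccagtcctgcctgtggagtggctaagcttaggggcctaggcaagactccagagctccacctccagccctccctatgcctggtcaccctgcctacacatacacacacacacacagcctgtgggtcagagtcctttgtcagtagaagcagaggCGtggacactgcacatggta
Gm31987 in the Ppp2r5a domain, chr1:191432689-191432988, minus strand: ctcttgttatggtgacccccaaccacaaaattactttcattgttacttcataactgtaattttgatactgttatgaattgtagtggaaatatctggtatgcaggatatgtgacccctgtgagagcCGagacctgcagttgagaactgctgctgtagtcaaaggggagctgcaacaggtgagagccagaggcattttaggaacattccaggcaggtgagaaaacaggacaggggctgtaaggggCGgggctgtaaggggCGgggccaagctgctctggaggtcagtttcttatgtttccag
Prdm1, chr10:44458699-44458998, minus strand: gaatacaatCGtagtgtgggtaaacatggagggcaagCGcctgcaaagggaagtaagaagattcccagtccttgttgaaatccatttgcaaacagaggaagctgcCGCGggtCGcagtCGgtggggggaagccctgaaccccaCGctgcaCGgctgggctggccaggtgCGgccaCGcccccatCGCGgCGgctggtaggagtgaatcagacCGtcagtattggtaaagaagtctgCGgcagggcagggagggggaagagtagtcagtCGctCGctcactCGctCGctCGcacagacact
D130051D11Rik in the Wnt7b domain, chr15:85634346-85634645, plus strand: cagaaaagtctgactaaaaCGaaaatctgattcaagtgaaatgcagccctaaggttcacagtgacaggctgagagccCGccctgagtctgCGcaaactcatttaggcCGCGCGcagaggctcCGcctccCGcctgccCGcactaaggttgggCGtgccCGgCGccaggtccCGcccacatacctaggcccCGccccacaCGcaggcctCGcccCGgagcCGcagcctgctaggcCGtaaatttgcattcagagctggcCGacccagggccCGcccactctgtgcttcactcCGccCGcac
Zfhx3, chr8:108714394-108714693, plus strand: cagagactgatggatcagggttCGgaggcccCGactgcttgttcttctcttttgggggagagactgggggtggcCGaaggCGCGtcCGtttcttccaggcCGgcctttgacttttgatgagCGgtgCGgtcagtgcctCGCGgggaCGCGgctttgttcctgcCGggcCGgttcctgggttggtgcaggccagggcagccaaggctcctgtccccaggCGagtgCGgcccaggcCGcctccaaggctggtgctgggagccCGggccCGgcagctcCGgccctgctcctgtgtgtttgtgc
Gm33538 in the Map4k3 domain, chr17:80785171-80785470, minus strand: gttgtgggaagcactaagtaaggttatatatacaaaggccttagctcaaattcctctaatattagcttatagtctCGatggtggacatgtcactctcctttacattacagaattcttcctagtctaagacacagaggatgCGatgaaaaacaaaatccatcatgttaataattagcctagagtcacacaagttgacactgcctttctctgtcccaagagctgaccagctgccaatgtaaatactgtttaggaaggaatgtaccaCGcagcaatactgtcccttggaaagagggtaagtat

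Accessibility is given on a scale of ranks within each library, called the rank score. The top peak has a score of 1, lower peaks have evenly smaller scores down to near 0, and a missing peak counts as 0. At the Prxl2a start the score was 0.405, 0.433, 0.489, 0.382, 0.640 and 0.521 in controls 1 to 6, and no knockout had a peak. The Gm31987 start scored 0.599, 0.565, 0.620, 0.405, 0.641 and 0.372 in controls, and of the knockouts only replicate 1 had a peak, at 0.213. This separation is how the pair was chosen. The Prdm1 start scored from 0.771 to 0.884 in controls and from 0.975 to 0.980 in knockouts, and D130051D11Rik from 0.953 to 0.977 and from 0.974 to 0.990. Zfhx3 had a peak in 4 controls, at 0.210 or less, and scored 0.304 to 0.658 in the 5 knockouts. Gm33538 had a peak in 4 controls, at 0.383 or less, and scored 0.577 to 0.799 in knockouts.

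Constituents with a start kept their peak in more knockout lists than other constituents. Of the 137 with a start, 120 (87.6%) had a peak in all 5 knockouts and 3 in none. The table of windows does not cover chromosome 18. Of the 3288 constituents without a start on the other chromosomes, 1809 (55.0%) had a peak in all 5 and 440 (13.4%) in none. Per knockout library, 94.2%, 92.7%, 95.6%, 93.4% and 92.0% of constituents with a start were kept, against 76.7%, 73.5%, 71.8%, 74.3% and 64.7% of those without. Constituents with a start also ranked higher in controls, with a median score of 0.766 against 0.513, and more of them were in all 6 controls (83.9% against 71.9%). Among constituents in all 6 controls, 94.8% of the 115 with a start and 68.4% of the 2363 without were in all 5 knockouts. Among those with a control score over 0.7 the gap was smaller, as all 83 with a start and 94.4% of the 933 without were in all 5 knockouts. What part of the gap the control rank makes up was not tested further. Isolated regions showed the same order, at 82.1% with and 51.4% without a start. The windows in constituents were rich in CG, with a median of 21 CG per window and 62.3% G and C, against 7 and 52.7% over all 32851 windows of the table. At least 10 CG were in 69.6% of them and in 43.5% of all windows. Windows of constituents kept in all 5 knockouts (149) had a median of 21 CG and the other 22 a median of 14. Single windows depart from the medians, as the Gm33538 window holds 3 CG and its constituent was in all 5 knockouts.

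**Figure D1:**
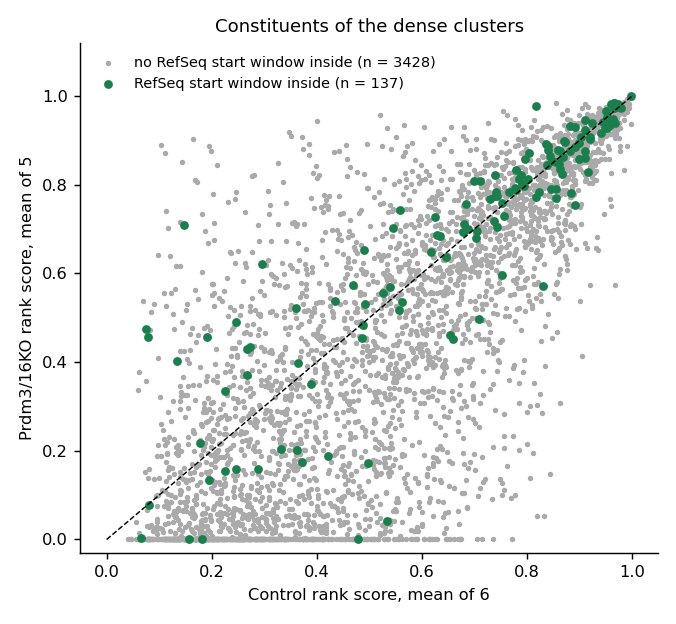
Mean rank score of each of the 3565 constituents in the 6 controls (x axis) and the 5 knockouts (y axis), with constituents that hold a RefSeq start window in green; on the dashed line both means are equal. Most green points lie near the line, while 467 constituents lie at 0 on the y axis because no knockout had a peak.

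Most domains overlapped a gene, often a long one. A domain held 5 to 19 constituents (median 6) and spanned 12.3 to 106 kb (median 31.8 kb), 19.6 Mb in all, of which constituents covered 2.64 Mb. Constituents were 685 bp wide at the median and isolated regions 765 bp. Of the 582 domains, 439 (75.4%) overlapped a protein-coding gene, 125 had their nearest gene body within 100 kb and 18 lay farther away. Every constituent was inside a gene body in 315 domains and none in 146. Gene bodies held 65.1% of constituents and 51.5% of isolated regions. The 434 overlapped genes had a median length of 104 kb, against 17.49 kb over 20665 autosomal coding genes. Longer genes have more room for such spans away from gene ends, so the rule itself favours them, and length was not matched. In 36 genes there were 2 or more domains. Atxn1, Dab2ip, Lmo7, Tns1 and Trio had 3 each; Lmo7 encodes a junction-associated LIM protein and Tns1 a focal adhesion protein. Just inside the size limit, 285 domains had exactly 5 constituents, and just outside it 668 stitched groups had 4. Regions of these groups were in a mean of 72.9% and 73.4% of knockout lists.

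The domain with the most constituents, 19 over 106 kb, lay between genes on chromosome 12 (69410757 to 69517080), 33632 bp from Gm46353. The domain in Cobl, whose product nucleates actin filaments, had 14 constituents over 75.9 kb (chromosome 11, 12373217 to 12449078). The Usp6nl domain also had 14, and Usp6nl encodes a GTPase-activating protein for Rab proteins. The Itgb6 domain had 13 (chromosome 2, 60637239 to 60721444), and Itgb6 encodes an epithelial integrin subunit that activates TGF-beta. Domains in Vps13d (13), at Fcgr3 and Cfap126 (12), in Ddc (12), in Pawr (11) and in Wwc1 (11), which encodes the Hippo regulator KIBRA, and one far from genes whose nearest is Hsf2 (11), were next. In all, 9 domains tied at 11 constituents. The 3 named here come first by position with chromosome names sorted as text, not by chromosome number.

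Few genes of the marker lists had a domain, and most of those were alveolar type 1 or type 2 genes. Domains lay at 9 of 24 alveolar type 1 genes (Hopx, Clic5, Vegfa, Cldn18, Lmo7, Sema3e, Ahnak, Hs2st1 and Timp3) and at 4 of 24 type 2 genes (Slc34a2, Etv5, Lpcat1 and Cd36). They lay at 1 of 13 airway secretory genes (Hes1) and 1 of 16 multiciliated genes (Cfap126). Over all autosomal coding genes the share was 551 of 20665 (2.67%), with a gene counted if a domain overlapped it or it was the nearest within 100 kb. No domain lay at any of the listed marker genes of mesenchymal (18 genes), endothelial (13), immune (11), erythroid (9), neuroendocrine (11) or basal cells (9). At the share of 2.67% over all coding genes, lists this short can hold no domain by their size alone. Nothing about cell type is read from their lack of domains. Of lung transcription factor genes 8 of 41 had a domain, among them Foxa2, Elf5, Etv5, Nfia, Tead1, Hopx and Runx1. No domain was assigned to Prdm16, Mecom or Nkx2-1. Gene length differs between lists and was not matched, so these shares are descriptions.

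In the knockout most constituents kept a peak, but few domains kept all of theirs. A peak was found at 77.3%, 74.2%, 72.7%, 75.0% and 65.8% of the 3565 constituents in knockouts 1 to 5, a mean of 73.0 ± 4.35% (SD, n = 5). Replicate 5 was the lowest, and its list was the shortest. All 5 knockouts had a peak at 2011 constituents (56.4%) and none at 467 (13.1%). Isolated regions were close to these shares, with 52.9% in all 5 and 14.9% in none. A peak in all 6 controls and no knockout was seen at 159 constituents of 143 domains. Every constituent was in all 5 knockouts in 28 domains, while 326 domains had at least 1 constituent in none, 106 at least 2 and 25 at least 3. Domains kept a median of 75.3% of their constituents, and 45 kept under 50%. In 204 domains (35.1%) at least 5 constituents were each still in 4 or more knockout lists. In these bulk libraries a peak lost from every cell and a smaller share of cells with it cannot be told apart.

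**Figure D2:**
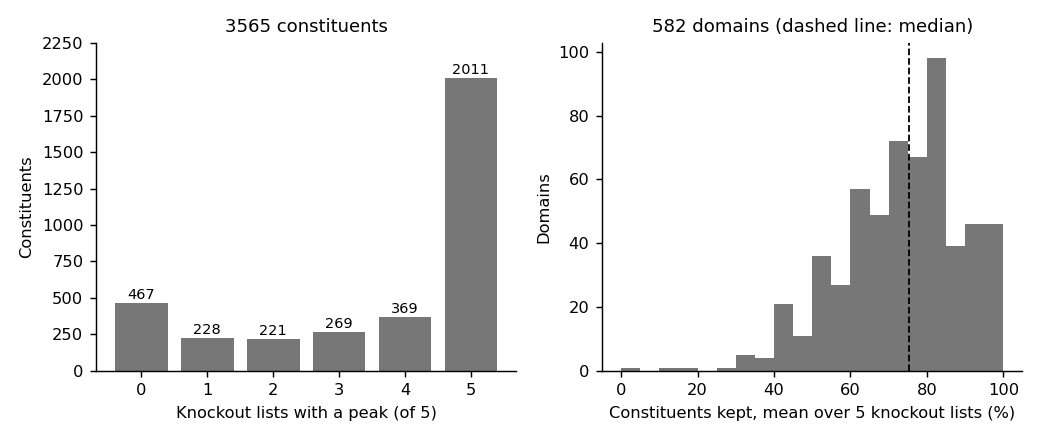
Left, number of the 3565 constituents by the number of knockout lists with a peak; right, number of the 582 domains by the mean percent of their constituents kept per knockout list, in bins of 5 percentage points. The left counts are highest at the ends, 2011 in all 5 lists and 467 in none, and the median domain (dashed) kept 75.3%.

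The share of knockout lists that kept a constituent differed with its control rank and width, and little with its place. Constituents in 4, 5 and 6 control lists were in a mean of 36.9%, 52.2% and 83.6% of knockout lists, and isolated regions in 39.4%, 50.7% and 81.1%. The median control score was 0.70 for those in all 5 knockouts and 0.24 for those in none. Constituents of up to 400 bp were kept in 48.9% and those over 800 bp in 81.5%. In contrast, constituents inside genes were kept in 72.8% and those between genes in 73.3%. The first and last constituent of a domain were kept in 72.1% and inner ones in 73.4%. Along the domains, 13.6% of the neighbours of a constituent absent from all knockouts were absent too, against 13.1% of all constituents. The 31 domains of 10 or more constituents kept a mean of 71.0%, from 41.8% to 96.0%.

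To look at a control that had no part in the choice, the domains were built 6 times, each time without 1 control, and the constituents were then looked up in the omitted control and in the knockouts. The other controls still chose the regions, so any difference between the genotypes puts the omitted control higher, and these values are a description with no test. Omitted controls had a peak at 96.2%, 96.3%, 90.6%, 95.6%, 84.1% and 93.8% of constituents in replicates 1 to 6. Knockouts 1 to 5 had one at 80.1%, 77.3%, 76.0%, 78.0% and 69.2%. The ranges did not overlap. Means were 92.8 ± 4.73% (SD, n = 6) and 76.1 ± 4.13% (SD, n = 5), a difference of -16.6 percentage points. Their mean rank score was 0.546 ± 0.0225 in omitted controls and 0.459 ± 0.0103 in knockouts (SD, n = 6 and 5), a difference of -0.0866. The deposited lists differed in length, from 79525 to 112297 peaks in controls and from 72935 to 85704 in knockouts. The weakest peak used had a −log10 p of 6.59 to 35.6 in controls and 2.00 to 14.0 in knockouts. Read depth is unknown, and the part of depth and list length in the difference was not tested.

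**Figure D3:**
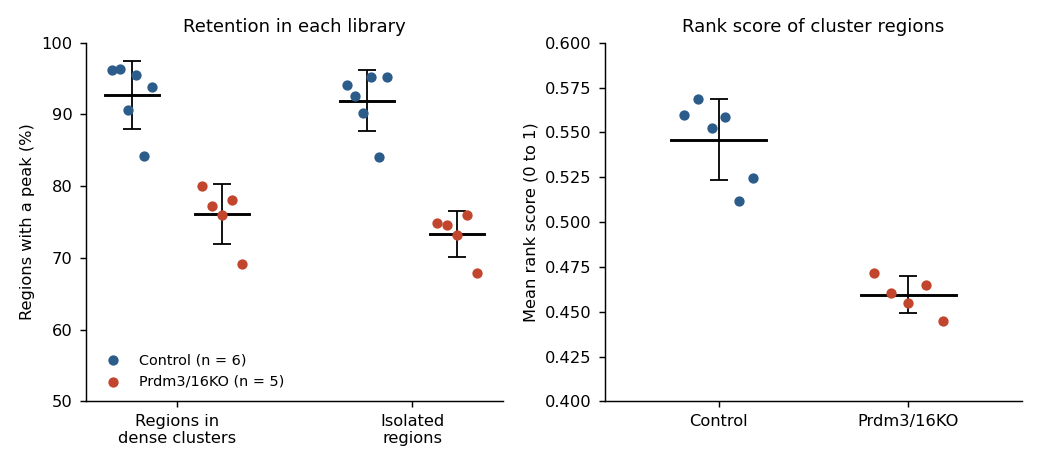
Left, percent of constituents of dense clusters and of isolated regions with a peak in each library (points), in controls left out of the choice of regions and in knockouts; right, mean rank score of the constituents. Lines are means and bars SD; the controls lie at 84.1% to 96.3% and the knockouts at 69.2% to 80.1% for cluster regions.

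Isolated regions were chosen by control peaks in the same way. Omitted controls had a peak at 91.9 ± 4.27% of isolated regions and knockouts at 73.3 ± 3.21% (SD, n = 6 and 5), a difference of -18.6 points, again with no test. Set against each other within a library, both kinds of region share this choice, though not in equal measure. In all 6 controls were 72.1% of constituents and 69.1% of isolated regions, so the subtraction need not remove the effect of the choice. Retention in clusters minus retention of isolated regions was 0.843 ± 1.82 points in controls, from -1.48 to 3.77, and 2.79 ± 1.41 points in knockouts, from 1.37 to 5.13. The excess in the knockout was 1.95 points (two-sided exact permutation p = 0.0887, n = 6 and 5), which does not pass the threshold. Each control value comes from the choice that omitted it, while each knockout value is a mean over all 6 choices. With control peaks behind both kinds of region, the test cannot decide whether clustered and isolated regions behave alike. Nothing is read from its outcome. Of 11 runs without 1 library, 9 also did not pass. The test passed without control replicate 2 (1.86 points) or control replicate 3 (2.05 points), with an exact permutation p of 0.0159 each.

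The same rule run on the knockout lists, with peaks in at least 4 of 5, gave 300 domains. Control domains built from 5 controls at the same minimum numbered 423 to 512 over the 6 ways to leave out 1 control. Of the 582 control domains 203 (34.9%) overlapped a knockout domain, and of the 300 knockout domains 205 (68.3%) overlapped a control domain. With a minimum of 3 knockout lists there were 497. No test was made of these counts, which depend on the minimum.

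The domain at Tet2, whose product oxidises methylated cytosine, was the single domain without a peak in any knockout at any constituent. It spans 133531529 to 133560075 on chromosome 3, with 2 of its 5 constituents inside the gene and 3 beyond its end. Controls 1 to 6 had a peak at 5, 4, 5, 5, 3 and 3 of them. Scores were modest, with the highest at 0.462 ± 0.115 and the lowest at 0.0816 ± 0.0700 (SD, n = 6). Between these constituents lies a peak at the gene end (133544824 to 133545223), which was left out of the domain for its place and not for its control level. It scored 0.621, 0.669, 0.693, 0.713, 0.702 and 0.714 in controls and 0.709, 0.810, 0.794, 0.828 and 0.793 in knockouts. The means rose from 0.685 ± 0.0354 to 0.787 ± 0.0459 (SD, n = 6 and 5, limma adjusted p = 0.00793), with 1 knockout among the controls. With the lists as deposited this call was lost (limma adjusted p = 0.103).

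Next lowest was a domain whose nearest gene is Gdnf, which encodes a neurotrophic growth factor. Of its 5 constituents 12.0% were kept. Its first constituent (chromosome 15, 7697458 to 7698491) scored 0.677, 0.668, 0.596, 0.657, 0.704 and 0.713 in controls and had no knockout peak. The third one went from 0.565 ± 0.122 to 0.139 ± 0.132 (SD, n = 6 and 5), with a peak in 3 knockouts, and the other 3 had none. Domains in Pced1b (16.0% kept), 146376 bp from Cyria (26.7%), and at B3gnt2, at Zfp335 and near Fzd4 (32.0% each) followed. Then came those 146711 bp from Cited2 (32.5%), in Sptbn1 (33.3%, 1 of 2 domains there) and near D16Ertd472e (36.0%). Fzd4 encodes a Wnt receptor, and at its domain knockouts 1 to 5 had 3, 2, 1, 1 and 1 of 5 constituents against 4 or 5 in every control. B3gnt2 adds N-acetylglucosamine to glycans and Sptbn1 encodes a spectrin of the membrane skeleton. These 10 were picked as the lowest, so their values carry no test.

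At the other end, a domain whose nearest gene is Mbip, which encodes a MAP kinase binding inhibitory protein, kept all 7 constituents in all 5 knockouts (chromosome 12, 56241643 to 56289018). Its mean score was 0.671 in controls and 0.7102 in knockouts. The last constituent of the Mbip domain scored 0.909 ± 0.0117 and 0.919 ± 0.0213 (SD, n = 6 and 5). In the Tsc22d1 domain, at a gene for a leucine zipper protein responsive to TGF-beta, all 6 constituents were kept and the mean score was 0.370 in controls and 0.603 in knockouts. A domain more than 100 kb from Ctnnb1, the gene for beta-catenin, kept all 6, with means of 0.751 and 0.767. A second domain nearer to Ctnnb1 kept 66.7%. Domains in Arhgap26, Rai14, Nedd4l, Capn8 and Kcnk2 and near Snx6 and Frmd8 were also fully kept. Arhgap26, Rai14 and Nedd4l have 2 domains each, of which 1 is meant here. Nedd4l encodes a ubiquitin ligase of the epithelial sodium channel, and Arhgap26 a GTPase-activating protein.

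Some domains held both losses and gains. The mean score was lower by 0.3 or more in knockouts at 500 constituents of 337 domains. It was higher by 0.3 or more at 131 constituents of 119 domains, and 65 domains (11.2%) had both. Falls and rises can share a domain by their numbers alone, and whether 65 is more than that was not tested. Isolated regions were not compared in this way, and the domains below are examples. In the Gli3 domain (chromosome 13, 15513825 to 15551316), at the gene for a Hedgehog-responsive zinc finger factor, the constituent at 15544012 to 15544634 scored 0.482, 0.624, 0.804, 0.696, 0.695 and 0.736 in controls and had no knockout peak. The constituent before it, at 15541751 to 15542461, went from 0.389 ± 0.125 to 0.769 ± 0.0529 (SD, n = 6 and 5). A window between constituents, at 15527563 to 15527962, had no control peak and scored 0.809, 0.814, 0.848, 0.849 and 0.718 in knockouts. Without a control peak this window could only be higher. In the Prxl2a domain the constituent with the printed start was lost, and the next one, at 41017455 to 41017907 on chromosome 14, went from 0.172 ± 0.194 in 4 controls with a peak to 0.805 ± 0.0233 (SD, n = 5). One of 2 domains at Slc1a3, a glutamate transporter gene, held a pair of constituents with no knockout peak (0.649 and 0.616 in controls) and one that went from 0.167 to 0.810. In the Cobl domain the sixth of 14 constituents went from 0.432 ± 0.0742 to 0.873 ± 0.0462 and the thirteenth from 0.395 ± 0.111 to 0.0340 ± 0.0760 (SD, n = 6 and 5).

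The constituents with the highest control scores among those absent from all knockouts lay at different genes. The first was at Fcgr3 and Cfap126 (chromosome 1, 171074347 to 171074702), where Cfap126 encodes a protein of cilia. It scored 0.759, 0.730, 0.800, 0.759, 0.826 and 0.752 in controls. Then came constituents of the domains at Haao (0.735 ± 0.0467), Lcp1 (0.715 ± 0.100), Abcd3 (0.704 ± 0.0334), Psen2 (0.674 ± 0.0949), Gli3 (0.673 ± 0.111), Bcl6 (0.672 ± 0.0699) and Gdnf (0.669 ± 0.0414; SD, n = 6 each). Lcp1 encodes an actin-bundling plastin, Abcd3 a peroxisomal transporter and Bcl6 a transcriptional repressor. The domains around them differed, as that at Fcgr3 and Cfap126 kept 81.7% of its 12 constituents and that near Gdnf 12.0%.

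The constituents with the greatest rises had to be weak in controls, since the rank score cannot exceed 1. The constituent near Npl, a sialic acid lyase gene (chromosome 1, 153602005 to 153602813), scored 0.235 or less in controls, with 2 controls at 0, and 0.890 ± 0.0154 in knockouts (SD, n = 5). One in Mbnl2, which encodes a splicing regulator, went from 0.111 ± 0.155 to 0.871 ± 0.0195, and one in Slc26a3, an anion exchanger gene, from 0.164 ± 0.150 to 0.903 ± 0.0132 (SD, n = 6 and 5). At the domain over Hbegf and Slc4a9 the first constituent went from 0.143 to 0.851, and Hbegf encodes a ligand of the EGF receptor. Near Jun, which encodes an AP-1 subunit, the eighth constituent went from 0.210 to 0.844. In each of these 5 every knockout was above every control. They were picked for their rise after the values were seen.

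Windows of 400 bp around peak summits were also compared genome-wide with limma on rank scores. Of 83262 windows, 20.8% were lower and 17% higher in the knockout at an adjusted p under 0.05. Windows on constituents were lower in 33.1% and higher in 11.2% of 3957, and nothing is read from this because control peaks chose them. Other windows inside the domain spans numbered 453, of which 18 were lower and 158 higher. Most of these are absent from most controls by the rule, which fixes their direction. At least 1 such higher window was found in 130 domains, and 118 domains held both a lower constituent window and another higher window. Whether 118 is more than the separate counts alone would give was not tested. The windows within 1 kb of a gene end were left out of the domains for their place, whatever their control level. This set mixes windows with control peaks and windows too rare in controls to be constituents at any place. Of the 122 inside domain spans 14 (11.5%) were lower and 12 (9.84%) higher, against 9.91% and 6.75% of all 20796 windows at gene ends.

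Among these gene-end windows of the domains described, 2 were absent from all controls. The rule would have left these 2 out at any place, and without a control peak they could only be higher. The window in the Rai14 domain (chromosome 15, 10720156 to 10720555, 889 bp from a gene end) scored 0.536, 0.470, 0.644, 0.373 and 0.490 in knockouts (limma adjusted p = 7.81e-06). Rai14 encodes an actin-binding ankyrin-repeat protein. In the Arhgap26 domain one scored 0.532, 0.540, 0.640, 0.522 and 0.676 in knockouts (limma adjusted p = 8.52e-07). At Scd2, a fatty acid desaturase gene, the window 145 bp from a gene end rose from 0.324 ± 0.166 to 0.713 ± 0.0401 (SD, n = 6 and 5, limma adjusted p = 7.15e-04). The window over a gene end of Daam2, which encodes a formin of Wnt signalling, fell from 0.903 ± 0.0266 to 0.818 ± 0.0159 (limma adjusted p = 3.41e-04). A window beside it, 508 bp from the gene end and under the same control peaks, fell from 0.903 to 0.206 ± 0.354 (SD, n = 5, limma adjusted p = 0.00115). There knockout 4 scored 0.833 and the other knockouts 0.136 or less.

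Domains at lung transcription factor genes kept a median of 72.1% of constituents over 8 domains, and all domains assigned to a gene a median of 75.6%. The Foxa2 domain, near the gene for a forkhead factor of endoderm, had 9 constituents (chromosome 2, 147968520 to 148030764) and every control had all 9, while knockouts 1 to 5 had 7, 6, 7, 7 and 7. The fifth and the seventh constituents had the highest scores in both groups, at 0.906 ± 0.0168 and 0.936 ± 0.00850 in controls and 0.859 ± 0.0203 and 0.879 ± 0.0268 in knockouts. The eighth went from 0.548 ± 0.0799 to 0.0687 ± 0.154, with 1 knockout peak, and the ninth from 0.295 ± 0.115 to no peak (SD, n = 6 and 5). The sixth of the Foxa2 domain went the other way, from 0.429 ± 0.144 to 0.698 ± 0.0803. Runx1 kept 75.0% of 8 constituents and Elf5, an ETS factor of epithelium, was the lowest of the list at 44.0%.

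Type 1 cell genes had 14 domains with a median of 76.0% kept and a range from 50.0% to 100%. The Hopx domain, near the gene for a homeodomain protein of type 1 cells, kept 80.0% of 9 constituents (chromosome 5, 77126291 to 77166562). Its first, sixth and seventh constituents scored 0.953, 0.943 and 0.882 in controls and 0.959, 0.968 and 0.895 in knockouts. The fifth of the Hopx domain went from 0.799 ± 0.0377 to 0.216 ± 0.136, and the eighth from 0.562 ± 0.0639 to no knockout peak (SD, n = 6 and 5). Domains at Vegfa, an endothelial growth factor, and Ahnak, a giant scaffold protein, kept 82.5% and 65.7%. The 4 domains at type 2 genes kept a median of 70.7%, and the lowest was that of Slc34a2 at 48.0%. Cd36, a fatty acid transporter gene, kept 92.5% of 8 constituents, Lpcat1 73.3% of 6 and Etv5 68.0% of 5.

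Lists of signalling genes had medians from 59.7% to 90.3%. The 6 domains at Wnt pathway genes kept a median of 62.9%, from 32.0% at Fzd4 to 72.0%, and the Wnt7b and Tcf7l1 domains kept 60.0% and 65.7% of 7 constituents each. In the Wnt7b domain the constituent with the printed D130051D11Rik start was the strongest, and 2 others without a start had no knockout peak. The 4 domains at BMP and TGF-beta genes (Smad3, Smad6, Smad7 and Ltbp1) kept a median of 59.7%. At Ltbp1, which encodes a binding protein of latent TGF-beta, all 5 constituents were in all 6 controls, and knockouts 1 to 5 had 1, 1, 4, 2 and 2. The mean score of the Ltbp1 domain was 0.553 in controls and 0.0930 in knockouts, and its last constituent went from 0.757 ± 0.0586 to 0.284 ± 0.0841 (SD, n = 6 and 5). Domains at 2 Notch pathway genes kept more, Hes1 88.6% and Maml2 92.0%. Of 5 domains at Hippo genes, Vgll4 kept 52.0% of 10 constituents and Amotl2 80.0% of 7. The 7 domains at FGF and receptor kinase genes had a median of 71.4%, from Spred2, an inhibitor of Ras signalling, at 54.0% of 10. Each list holds few domains, and none was tested.

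Structural genes held many domains. The 13 at junction genes kept a median of 80.0%, and Cdh1, the gene for E-cadherin, kept 68.9% of 9 constituents. The second constituent of the Cdh1 domain scored 0.772 ± 0.0365 in controls and 0.801 ± 0.0570 in knockouts, while the fifth and sixth had no knockout peak. The 10 at genes of actin regulators kept a median of 82.0%, but Fmnl2, a formin, kept 54.5% of 11 and Daam2 54.3% of 7. The 9 at matrix and integrin genes kept a median of 64.0%, with Itgb6 at 81.5% of 13 and Itgav, the partner subunit of Itgb6, at 51.4% of 7. The 3 at steroid and retinoid receptor genes were Nr3c1 (42.9%), Rarb (66.7%) and Thra (85.7%), and the 3 at surfactant lipid genes were Scd2 (60.0%), Lpcat1 and Srebf1 (88.0%). Prdm1 was the single PRDM gene of 17 with a domain. Knockouts 1 to 5 had 5, 5, 6, 6 and 6 of its 6 constituents, and the second of the Prdm1 domain went from 0.876 ± 0.0372 to 0.621 ± 0.0625 (SD, n = 6 and 5).

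**Figure D4:**
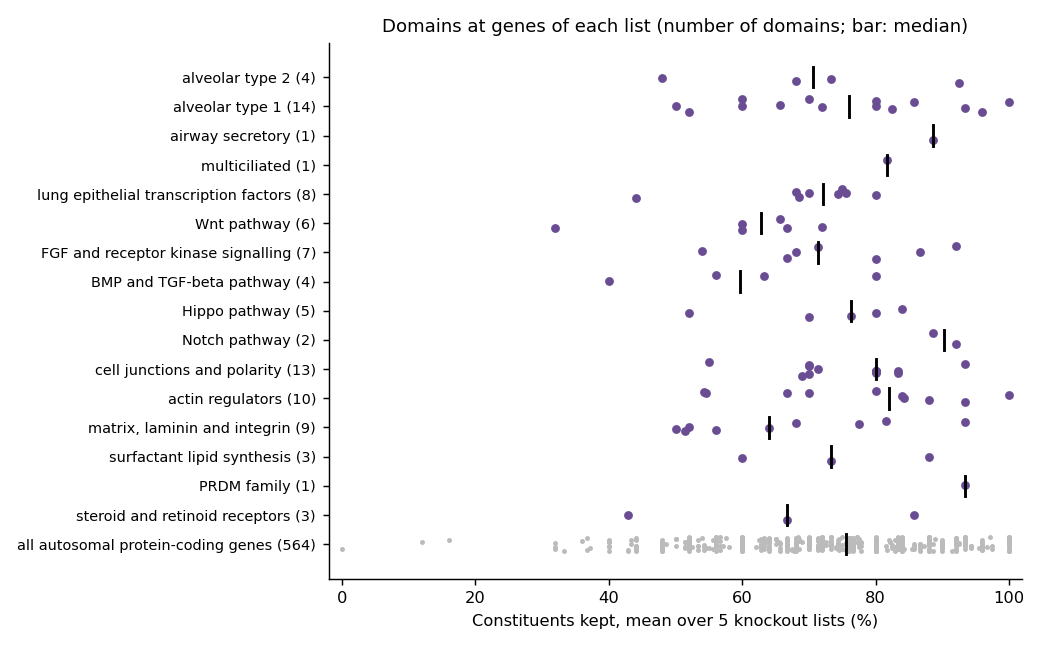
Percent of constituents kept, as the mean over the 5 knockout lists, for each domain (points) at genes of 16 lists and for all 564 domains assigned to a gene (bottom); black bars are medians and vertical jitter has no meaning. The lists overlap each other over a wide range, and the median of all domains is 75.6%.

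Several microRNA hairpins lay inside domain spans, 17 in 15 domains, of which 1 overlapped a constituent. Mature sequences are shown, from RefSeq with the seed (bases 2 to 8) in capitals, for those whose nearest constituents could be compared by shared seed, together with 2 further miRNAs known from epithelium.
miR-30a-5p, chr1:23272274-23272295, plus strand: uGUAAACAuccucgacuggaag
miR-30c-5p (Mir30c-2), chr1:23291714-23291736, plus strand: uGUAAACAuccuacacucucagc
miR-29a-3p, chr6:31062673-31062694, minus strand: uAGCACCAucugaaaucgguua
miR-29b-3p (Mir29b-1), chr6:31063025-31063047, minus strand: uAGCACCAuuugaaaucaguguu
miR-31-5p, chr4:88910614-88910635, minus strand: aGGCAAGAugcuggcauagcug
miR-21a-5p, chr11:86584120-86584141, minus strand: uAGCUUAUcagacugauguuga
The first pair shares 1 seed, lies in the domain near Ogfrl1, and has nearest constituents that were in all 5 knockouts, 412 bp from Mir30a (0.951 in controls, 0.947 in knockouts) and 853 bp from Mir30c-2 (0.516 and 0.644). The second pair also shares a seed and lies in the domain near Klf14. The constituent 263 bp from Mir29a scored 0.603 in controls and 0.190 in knockouts, with a peak in 3 of 5. The constituent 207 bp from Mir31, in the domain near Ifne, had a peak in 4 controls (mean 0.189) and in no knockout, and a neighbouring constituent was also lost. The whole Ifne domain kept 51.4% of 7 constituents, and its last one scored 0.989 ± 0.00410 and 0.986 ± 0.00300 (SD, n = 6 and 5). The constituent nearest to Mir21a, 2318 bp away in the Vmp1 domain, scored 0.183 and 0.0807. Levels of these miRNAs were not analysed here.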

How the data were processed

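ATAC-seq peak lists of 6 Control and 5 Prdm3/16KO libraries were used, 1 list per library. The deposited lists give, per the file headers' narrowPeak layout, a fold enrichment (a ratio) and −log10 p and −log10 q values for each peak; the authors' processing notes name MACS2, DiffBind version 3, deepTools and mm10 without roles. The aligner and calling options: not given in the sources used here. Read depth is unknown. Members and gene lists were chosen with earlier results of these data known.

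Each list was cut to its 72935 strongest rows by −log10 p, as many as the shortest list holds, then to chromosomes 1 to 19 for the domains. Peaks were turned into rank scores. Coding gene positions, start windows and miRNAs came from RefSeq tables of GRCm38.p6 (21900 coding genes). Peaks counted as present at an overlap of 1 bp. Named domains were the 10 with most constituents, the 10 least kept, the 10 largest fully kept, the 5 with most other windows higher, those of Prdm16, Mecom or Nkx2-1, and up to 3 per gene list; others were chosen after their values were seen. Held-out values are a description, and the retention of clustered minus isolated regions was compared by a two-sided exact permutation test over libraries. Summit windows of 400 bp with a peak in at least 3 libraries were fitted by limma (version 3.58.1, R version 4.3.3, with trend and robust options), with Benjamini-Hochberg adjustment over all windows, after the code was tested on simulated data. Other steps used Python 3.11.15 with numpy 2.4.6, pandas 2.3.3, scipy 1.17.1 and matplotlib 3.10.9. Alternatives varied the list length, the control lists needed, the gene-end and stitching distances, the domain size, the score and the libraries.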

Additional observations from a re-analysis of the deposited data

Results flagged for a closer look

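In 72 groups of values of the constituents, starts and windows examined, 12 groups had 1 library far from the others of its genotype. The limit used flags about 1 in 20 groups when values follow a normal distribution. Several groups here hold mostly zeros or were picked as extremes, so that rate does not apply and no excess is read from the count. Control 3 stood high at the fifth Haao constituent (0.827) and low at the third Bcl6 constituent (0.537). Control 2 stood high at the fifth Mbnl2 constituent (0.412), and control 5 had no peak (score 0) at the second Ccdc91 constituent. Knockout 4 stood high at the fifth Slc26a3 constituent (0.926) and knockout 3 at the eighth Jun constituent (0.915). Knockout 1 was the single knockout with a peak at the Gm31987 start (0.213). In windows outside constituents, knockout 2 stood high near Cited2 (0.649), and control 1 alone had a peak at a Ddc window (0.0682). At the Gli3 window beside the third constituent, control 3 alone had a peak (0.336) and knockout 5 stood low (0.105). At the Hes1 window knockout 3 scored 0.756, within the control range of 0.624 to 0.779, while the other knockouts were at 0.009 or less.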

How the results depend on the processing

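The held-out differences, whose direction the choice by control peaks fixes under each setting, ranged from -17.6 to -12.7 points for retention and from -0.141 to -0.0474 for the rank score over the settings tried. Without any 1 library they were -17.6 to -14.6 points and -0.0974 to -0.0829, and with a replicate block -16.4 points and -0.0909. The deviations of same-numbered libraries correlated at -0.0234 to 0.139, and those of other control and knockout pairs at -0.084 to 0.0809. What equal numbers stand for is not stated, and these values do not settle it. The excess retention in clusters did not pass the test under 8 of 12 other settings. It was lowest with stitching at 25 kb (0.716 points, exact permutation p = 0.47). With 3 kb from gene ends it was 1.63 points (exact permutation p = 0.149). With 4 or more regions it was 1.62 points (exact permutation p = 0.108). It passed with lists cut to 50% of the length (4.62 points, exact permutation p = 0.00433). It passed with 5 control lists (1.37 points, exact permutation p = 0.0433). Stitching at 5 kb also passed (5.78 points, exact permutation p = 0.0195), as did 8 or more regions (2.90 points, exact permutation p = 0.0433). Without 1 library the excess ranged from 1.28 to 2.30 points, and 9 of 11 such runs did not pass. The number of domains depends on the rule: 51 with lists cut to 50% of the length, 196 with 6 control lists, 27 and 1621 with stitching at 5 and 25 kb, 1250 and 83 with 4 or 8 regions as the minimum, and 423 to 512 without 1 control. Constituents were kept to 78.0% and 82.7% with 5 and 6 control lists, and to 71.9% to 77.0% without 1 library. Knockout domains numbered 49 (50% length), 13 and 1053 (5 and 25 kb), 759 and 26 (4 and 8 regions), 497 (3 knockout lists), and 160 to 210 without 1 knockout at the same minimum. Other windows higher numbered 6 (50% length), 3 and 860 (5 and 25 kb), 104 (5 or more libraries) and 140 to 174 without 1 library. Other windows lower numbered 37 (lists as deposited), 0 (50% length), 0 and 143 (5 and 25 kb), 7 (presence alone) and 16 to 21 without 1 library. The window at Thra and Nr1d1, higher by 0.262 in the knockout, turned to -0.0131 with lists cut to 50% of the length (limma adjusted p = 0.908). Scored by presence alone, the gene-end windows at Tet2, Scd2, Daam2 and Thra lost their call (limma adjusted p = 0.452 each). Those at Tet2, Daam2 and Thra had a peak in all 11 libraries, and that at Scd2 lacked one in control 3 alone. Presence could therefore hardly differ there. The Thra window also lost its call with the lists as deposited (limma adjusted p = 0.0938). The cause of the other shifts was not tested. Held-out values could not be made for 6 control lists, since 5 controls remain when 1 is omitted.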
